A study of Mus musculus with 64 samples.

Results

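Meis1, Meis2, Meis3 and Pbx3 encode homeodomain transcription factors of the TALE class, and their loci were examined here for occupancy by SOX2 and by the mediators of WNT signalling. These 4 genes were chosen by name, out of 21938 protein-coding genes annotated on the same build. Their windows, the gene body with 30 kb on either side, held 5582 of the 12175735 peaks in 60 chromatin immunoprecipitation sequencing (ChIP-seq) peak lists, and 853 of the 1094874 peaks that remained when each list was cut to its 20000 strongest peaks. A peak was assigned by its summit, the base with the most signal. The strength of a peak is the fold enrichment over background that the peak caller gave it.

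The study asked how the level of SOX2 shapes where WNT mediators sit on chromatin in mouse embryonic stem cells (ESC) and in caudal epiblast-like cells (CEpiLC), an in vitro counterpart of the tail-end epiblast. All cells were of strain HM1 (129) and labelled with a time point of 72 h. Wild-type naive ESC were kept in 2i medium, which holds the GSK3 inhibitor CHIR and a MEK inhibitor, and received no other treatment by their labels. Wild-type CEpiLC were differentiated with bFGF and LGK974, a blocker of WNT secretion, and then with CHIR added to these. SOX2-ON and SOX2-OFF cells were Sox2-/- and carried a doxycycline-driven Sox2 transgene placed at the Hprt locus in HM1 cells with a reverse transactivator, and both went through the CEpiLC protocol. Doxycycline, 1 µg/ml before differentiation, was maintained in SOX2-ON and withdrawn in SOX2-OFF cells. Both come from a single engineered line and differ in doxycycline, so an effect of SOX2 and one of doxycycline itself cannot be told apart. Antibodies against SOX2, β-catenin, LEF1, TCF7L1 (labelled TCF3) and TCF7L2 (labelled TCF4) were used in 3 biological replicates of each of the 4 conditions. By the study's methods the replicates came from separate experiments.

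TALE proteins bind DNA together with one another and with HOX proteins. MEIS proteins pair with PBX proteins and thereby sharpen the choice of target of HOX factors, which give cells their position along the body axis. β-catenin carries the WNT signal to chromatin by binding the TCF/LEF proteins, and SOX2 is a pluripotency factor whose binding motif resembles that of the TCF/LEF proteins.

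List length varied widely, which bears on every value below. The lists held between 1628 and 991719 peaks, with a median of 106232, and 10 of them were shorter than 20000 and were used whole. The shortest belonged to TCF7L1 in CEpiLC replicate 1 (1628 peaks), β-catenin in SOX2-OFF replicate 2 (3423), TCF7L2 in SOX2-OFF replicate 2 (4134), LEF1 in CEpiLC replicate 1 (4443) and TCF7L2 in CEpiLC replicate 1 (4627). The read depth behind the peaks is unknown, since the lists hold no read counts. A missing peak therefore says that none was called, not that the protein was absent. SOX2-OFF libraries still held 56263 to 375980 SOX2 peaks.

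Summits of the strongest peaks in all libraries were joined into elements, short stretches with a median length of 328 bp. An element was counted as supported where at least 2 of 3 libraries of some target and condition had one of their 20000 strongest peaks, called top-list peaks here, on it. The windows of the 4 genes held 67 of the 56918 supported elements of the genome. Elements are named by the gene and by the distance of their median summit from the gene start, positive in the direction of transcription.

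The sequences of 5 elements are shown because the clearest occupancy patterns lie there. Each line holds 201 bases around the middle of the element, on the plus strand of GRCm38, the assembly also called mm10. Capitals mark matches, on either strand, to CTTTGA (the TCF/LEF core), CATTGT (a SOX core), CTTTGT (read by SOX and by TCF/LEF proteins), TGACAG (MEIS), TTTATNG (CDX), ATGCNAAT (octamer) or TGATTNAT (PBX with HOX). None of the marked matches overlapped another.
Meis3 -856 bp: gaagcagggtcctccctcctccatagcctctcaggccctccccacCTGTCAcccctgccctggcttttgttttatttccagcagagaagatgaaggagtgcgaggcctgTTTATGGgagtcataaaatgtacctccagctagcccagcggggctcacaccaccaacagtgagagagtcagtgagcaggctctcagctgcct
Meis2 +87.0 kb: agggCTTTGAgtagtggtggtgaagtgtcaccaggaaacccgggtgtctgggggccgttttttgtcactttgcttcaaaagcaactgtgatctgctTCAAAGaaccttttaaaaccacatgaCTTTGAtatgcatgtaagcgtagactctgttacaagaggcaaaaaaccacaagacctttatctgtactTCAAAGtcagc
Meis2 +5.6 kb: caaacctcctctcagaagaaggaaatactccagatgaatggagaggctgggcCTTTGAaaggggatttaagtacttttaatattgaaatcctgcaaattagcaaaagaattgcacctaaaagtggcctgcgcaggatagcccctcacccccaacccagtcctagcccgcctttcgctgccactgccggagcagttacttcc
Meis1 +105.6 kb: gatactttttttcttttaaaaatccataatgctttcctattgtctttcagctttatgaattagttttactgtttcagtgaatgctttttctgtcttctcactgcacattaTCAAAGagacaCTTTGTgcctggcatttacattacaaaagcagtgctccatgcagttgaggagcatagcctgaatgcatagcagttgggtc
Pbx3 -26.6 kb: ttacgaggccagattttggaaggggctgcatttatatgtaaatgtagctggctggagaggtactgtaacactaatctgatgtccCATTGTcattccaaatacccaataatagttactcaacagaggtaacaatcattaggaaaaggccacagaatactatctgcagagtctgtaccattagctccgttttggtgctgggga

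Over all 56918 supported elements, windows of the same length held CTTTGA in 31.1%, CATTGT in 18.5%, CTTTGT in 31.7%, TGACAG in 12.8%, TTTATNG in 8.01%, ATGCNAAT in 6.0% and TGATTNAT in 2.45%. Among the 67 elements of the 4 genes the shares were 29.9%, 19.4%, 23.9%, 14.9%, 13.4%, 2.99% and 2.99% in the same order. The element in the Meis2 intron at +87.0 kb held 4 matches to CTTTGA, a number reached or passed by 27 elements of the genome (0.0474%). The Meis3 element held none of the 3 SOX and TCF/LEF letter strings, as did 38.1% of all elements, and held 1 match each to the MEIS and CDX strings. A match is a description of letters, and a missing match says only that those letters were not in this window.

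Occupancy was spread unevenly over the 4 loci. Meis1 (ENSMUSG00000020160.18, chr11:18879817-19018985, minus strand) had 26 supported elements and Meis2 (ENSMUSG00000027210.20, chr2:115863064-116065839, minus strand) had 30. Meis3 (ENSMUSG00000041420.18, chr7:16175090-16186504, plus strand) had 3 and Pbx3 (ENSMUSG00000038718.15, chr2:34171457-34373142, minus strand) had 8. Per 100 kb of window this came to 13.1 elements for Meis1, 11.4 for Meis2, 4.2 for Meis3 and 3.06 for Pbx3. In CEpiLC, 21 of the 26 Meis1 elements had top-list peaks of some target in at least 2 of 3 libraries, against 4 in naive ESC, 11 in SOX2-ON and 7 in SOX2-OFF cells. At Meis2 these counts were 17 in CEpiLC, 8 in naive ESC, 16 in SOX2-ON and 7 in SOX2-OFF. Meis3 had 1 in CEpiLC, 2 in naive ESC, 1 in SOX2-ON and 0 in SOX2-OFF, and Pbx3 had 4, 3, 4 and 3 in the same order. Of all supported elements, 46.5% met this in CEpiLC, 49.9% in naive ESC, 41.7% in SOX2-ON and 26.6% in SOX2-OFF. The lowest fold in a top list also differed between libraries, down to 1.54 in a CEpiLC list of β-catenin that was used whole and up to 9.89 in a naive ESC list of SOX2, and its part in these counts was not tested.

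**Figure D1:**
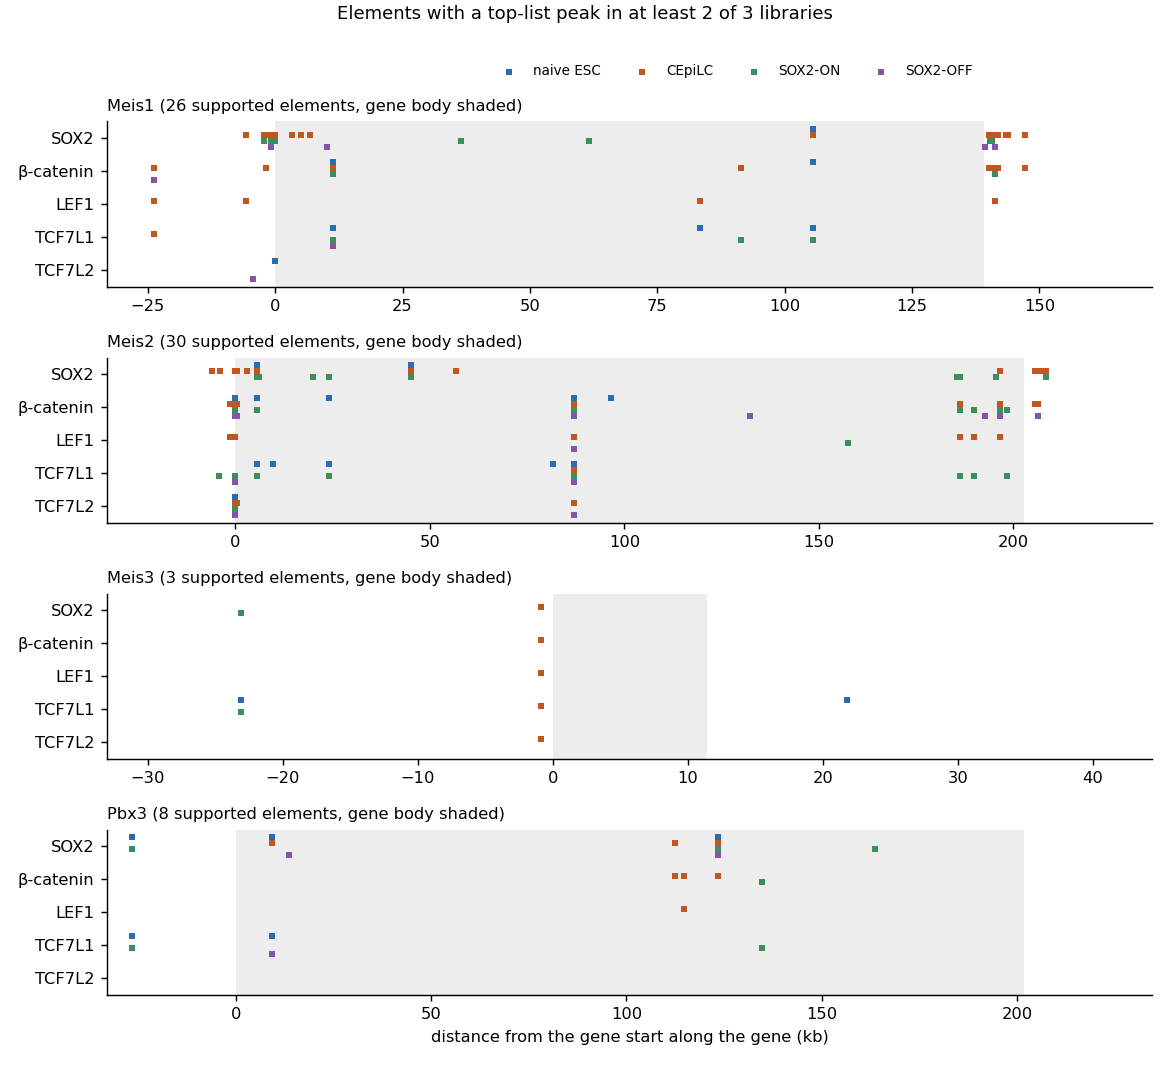
Supported elements at Meis1, Meis2, Meis3 and Pbx3, by distance from the gene start in kb (x axis) and by immunoprecipitated protein (y axis). A square marks an element with a top-list peak in at least 2 of 3 libraries of a condition, coloured by condition, and the gene body is shaded. At Meis1 most squares gather at both ends of the gene and are CEpiLC, whereas Meis3 shows 1 column of CEpiLC squares shared by all 5 proteins.

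By the top lists, all 5 proteins were called in CEpiLC and not in naive ESC at 1 position just upstream of Meis3. The same held for SOX2 or β-catenin at elements around both ends of Meis1 and of Meis2. Where weaker naive ESC peaks of the full lists also counted, all but TCF7L1 remained at Meis3. SOX2 then remained only at Meis1 +147.2 kb and Meis2 +208.3 kb, both near the 3′ ends, and β-catenin at no Meis1 or Meis2 element. TCF7L1 peaks inside Meis1 and Meis2 and at the edges of the Meis3 window were called in naive ESC and not in CEpiLC. This comparison asks how occupancy differs between naive pluripotency and CEpiLC identity, with CHIR in the medium of both. An element was called where all 3 libraries of one condition and none of the other had a top-list peak, among elements with a top-list peak in at least 3 of the 6 libraries. Over the 4 genes, 23 pairs of element and protein were CEpiLC-only and 11 were naive-only. A two-sided exact permutation test of 3 libraries against 3 cannot give a p below 0.1, so these calls carry no significant single test.

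For SOX2, 8 of 15 tested elements of the 4 genes were CEpiLC-only and 1 was naive-only, where the rates over the 15288 tested elements of the genome were 18.9% and 16.7%. Some wide SOX2 peaks covered more than 1 of these elements. The CEpiLC-only calls at Meis1 +140.6, +140.3 and +3.2 kb were lost when the summit had to lie inside the element. For β-catenin, 7 of 16 were CEpiLC-only and 2 naive-only, where the genome gave 21.4% and 29.5%. Its CEpiLC top lists reached down to folds of 3.08, 1.61 and 1.54, those of naive ESC only to 5.9, 6.35 and 5.64. With all β-catenin lists cut to the same length, only Meis3 -856 bp of the 7 was still called. Meis2 +87.0 kb and +6 bp were then CEpiLC-only too, and neither naive-only call remained. LEF1 gave 4 CEpiLC-only of 6 and 0 naive-only, against 42.1% and 0.341%. For TCF7L1 the order turned, with 1 of 11 CEpiLC-only (the Meis3 element) and 8 naive-only, against 0.716% and 71.8%, so that the naive-only share was near that of all elements. TCF7L2 gave 3 CEpiLC-only of 4 and 0 naive-only, against 15.2% and 6.91%. The TCF7L1 naive-only share of all elements is itself very high, and the CEpiLC replicate 1 list of TCF7L1 held 1628 peaks. The 4 genes had 8 naive-only TCF7L1 pairs also without the 5 lists under 5000 peaks, 4 with 10000 peaks per list and 0 with lists of equal length. With all lists of a protein shortened to the same length, 14 pairs were CEpiLC-only and 1 was naive-only, namely SOX2 at Pbx3 -26.6 kb.

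Meis3 encodes a MEIS protein active in the early hindbrain. The element at -856 bp (chr7:16174088-16174366) lay between genes, 856 bp before the annotated gene start and 1041 bp before the nearest start of a basic transcript. SOX2 reached fold enrichments of 13.3, 17.2 and 12.7 there in the 3 CEpiLC libraries (14.4 ± 2.44, SD, n = 3), and no SOX2 peak was called in any of the 9 libraries of the other conditions. β-catenin reached 38.4, 31.0 and 23.2 in CEpiLC (30.9 ± 7.60), none in naive ESC or SOX2-OFF, and 2.6 and 4.73 in 2 of 3 SOX2-ON libraries. LEF1 reached 15.9, 22.7 and 11 in CEpiLC (16.5 ± 5.88) and had no peak elsewhere. For these 3 proteins every CEpiLC library therefore stood above every library of the other conditions.

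TCF7L1 reached 6.75, 10.5 and 6.05 in CEpiLC (7.76 ± 2.38), 4.42 in 1 naive ESC library and no peak in any other. TCF7L2 reached 11.9, 8.28 and 7.26 in CEpiLC (9.16 ± 2.46) and had no peak elsewhere. No overlap between CEpiLC and naive ESC libraries was seen for any of the 5 proteins. That order largely follows from the CEpiLC-only calls and is no separate support, nor is the p that goes with it. Differences in mean log2 fold enrichment, with a missing peak set to 0, (CEpiLC minus naive ESC) were 4.92 in the case of β-catenin, 3.98 for LEF1, 3.84 for SOX2, 3.16 for TCF7L2 and 2.2 for TCF7L1, each at the smallest possible p of the exact permutation test, 0.1. Among all peaks of their libraries the β-catenin peaks ranked 215, 498 and 610 by fold, and even in the CEpiLC replicate 1 list of TCF7L1, the shortest list, a peak was called here, at rank 1127.

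**Figure D2:**
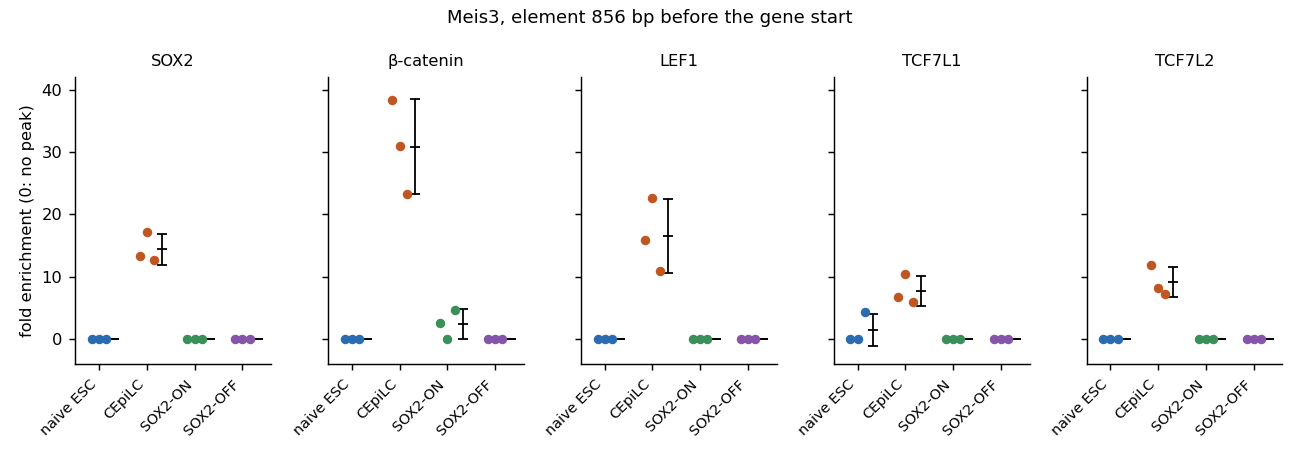
Fold enrichment (y axis, linear) of the strongest peak at the Meis3 element 856 bp before the gene start, by condition (x axis) and protein (panels). Points are the 3 libraries of a condition, with 0 for no peak, and the bars give mean ± SD. In CEpiLC the SOX2 libraries sit between 12.7 and 17.2 and the β-catenin libraries between 23.2 and 38.4, and the SOX2, LEF1 and TCF7L2 libraries of all other conditions are at 0.

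Median summits of the 5 proteins at this element lay within 15 bp of the median over all of them. Across the genome, 367 elements (0.645% of all) had top-list peaks of all 5 proteins in 3 of 3 CEpiLC libraries. Of these, the Meis3 element was the only one (0.272%) with no top-list peak in any library of the other conditions, a count made after its values had been seen. With the 10000 strongest peaks per list 4 of its 5 CEpiLC calls remained (all but TCF7L2), with lists of equal length 3 (SOX2, β-catenin and LEF1), and with absence required in the full lists 4 (all but TCF7L1). The other elements of the Meis3 window, described after their values were seen, were called naive-only, for TCF7L1 alone. So were 71.8% of all elements tested for TCF7L1, and neither call remained with lists of equal length. The CEpiLC replicate 1 list of TCF7L1 held 1628 peaks. At -23.1 kb, in an intron of Slc8a2, which encodes a sodium-calcium exchanger, TCF7L1 reached 9.22, 7.75 and 13.5 in naive ESC and none in CEpiLC. At +21.8 kb, between genes, TCF7L1 reached 17.6, 11.2 and 16.2 in naive ESC and none in CEpiLC.

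Meis1 encodes a MEIS protein and is known for its role in limb, eye and blood development. Its leading element, with 3 of 3 top-list peaks in 4 combinations of protein and condition, lay at +141.2 kb (chr11:18877520-18877944), beyond the 3′ end of the gene and 5624 bp from the start of 8430419K02Rik. SOX2 reached 10.9, 10.1 and 10.4 there in CEpiLC (10.5 ± 0.399), 6.12 and 4.88 in 2 naive ESC libraries, 5.85, 5.14 and 5.2 in SOX2-ON, and 5.24, 8.53 and 6.69 in SOX2-OFF. SOX2 fold was thus highest in CEpiLC with no overlap with any other condition. β-catenin reached 7.58, 5.47 and 6.34 in CEpiLC and 4.39 and 4.65 in 2 of 3 naive ESC libraries, and LEF1 reached 5.52, 6.18 and 4.48 in CEpiLC and 7.01 in 1 naive ESC library, which overlapped. The CEpiLC-only calls here held for the top lists, since weaker SOX2 and β-catenin peaks were present in 2 of 3 naive ESC libraries in the full lists. This element was 1 of 9 between +139.3 and +147.2 kb, and some of them shared 1 wide peak: SOX2 peaks of 10.9, 10.1 and 10.4 in CEpiLC also covered the element at +140.6 kb, so these calls are not separate events.

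Within the Meis1 gene, the intronic element at +83.3 kb (chr11:18935459-18935832) was called for LEF1 in CEpiLC and for TCF7L1 in naive ESC. LEF1 reached 5.6, 4.31 and 4.8 there in CEpiLC and had no peak in naive ESC. TCF7L1 reached 8.98, 6.23 and 12.7 in naive ESC and had no peak in CEpiLC, SOX2-ON or SOX2-OFF. LEF1 and TCF7L1 were thus called in opposite conditions at 1 element, with differences of 2.29 and -3.16 in mean log2 fold (CEpiLC minus naive ESC), each at p = 0.1 in the exact permutation test. Each direction was the more common one of its protein over all elements. Both calls were lost with 10000 peaks per list and with lists of equal length, and the LEF1 call also with only peaks of -log10 q at least 5.

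The start of Meis1 was occupied mainly by SOX2. At -28 bp (chr11:19018676-19019227) SOX2 reached 8.03, 6.13 and 5.83 in naive ESC, 10.2, 9.06 and 4.7 in CEpiLC, 6.18, 6.52 and 8.87 in SOX2-ON and 4.54, 5.59 and 7.32 in SOX2-OFF. At -949 bp (chr11:19019647-19020114) it reached 11.6, 3.71 and 3.58 in naive ESC, 10.2, 8.95 and 10.9 in CEpiLC, 11.6, 12.5 and 7.91 in SOX2-ON and 5.08, 4.42 and 8.16 in SOX2-OFF. A SOX2 peak was called in all 12 libraries at both elements, and the conditions overlapped except for CEpiLC above SOX2-OFF at -949 bp. β-catenin was called in 1 of 12 libraries at -28 bp and in 3 of 12 at -949 bp.

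Meis2 encodes a MEIS protein known from neural crest and heart development. Its leading element, by the number of combinations with 3 of 3 top-list peaks (6, the same as at the start site, with the higher fold), lay in an intron at +87.0 kb (chr2:115978652-115979012). More libraries had peaks of β-catenin, LEF1 and TCF7L1 there than of SOX2. β-catenin reached 18.5, 33.4 and 28.3 in CEpiLC (26.7 ± 7.57), 36.9, 15.7 and 75.0 in SOX2-OFF, 6.74, 10.7 and 16.5 in SOX2-ON, and 6.21 and 7.05 in 2 naive ESC libraries. LEF1 reached 8.02, 15.9 and 23.2 in CEpiLC, 12.9, 7.63 and 22 in SOX2-OFF, 5.66 and 5.23 in 2 SOX2-ON libraries and none in naive ESC. Every CEpiLC library of both proteins stood above every naive ESC library. High SOX2 (naive ESC and SOX2-ON) minus low SOX2 (CEpiLC and SOX2-OFF) came to -2.31 for β-catenin and -2.95 for LEF1 in mean log2 fold, and neither passed the test described below (adjusted p = 0.0797 and 0.144, exact permutation test over 6 libraries against 6).

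TCF7L1 at the same element reached 20.7, 34.3 and 54.7 in SOX2-OFF, 5.33, 8.52 and 13.0 in naive ESC, 8.22 and 29.5 in 2 SOX2-ON libraries, and 22.1 and 13.6 in 2 CEpiLC libraries, with no peak in the list of 1628 peaks. TCF7L2 reached 5.99, 7.72 and 9.67 in CEpiLC and had no peak in naive ESC. SOX2 had a peak in 1 CEpiLC, 1 SOX2-ON and 2 SOX2-OFF libraries, of 3.71 to 13.0. LEF1 and TCF7L2 were called only in CEpiLC against naive ESC, and LEF1 also only in SOX2-OFF against SOX2-ON, a difference of -2.06 in mean log2 fold (SOX2-ON minus SOX2-OFF, p = 0.1, exact permutation test). The 4 CTTTGA matches printed above lie in this element.

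At the intronic element at +196.6 kb of Meis2 (chr2:115869109-115869419), β-catenin reached 13.2, 13.5 and 4.82 and LEF1 6.2, 9.22 and 3.93 in CEpiLC. In naive ESC each had 1 library with a peak, of 4.41 for β-catenin and 3.17 for LEF1, so that no value overlapped. The Meis2 start site was covered at +6 bp (chr2:116065676-116066024, in the UTR). β-catenin reached 15.2, 29.4 and 15.9 there in CEpiLC, 17.4, 10.2 and 17.1 in SOX2-ON, 26.9, 5.59 and 15.7 in SOX2-OFF, and 12.2 and 7.67 in 2 naive ESC libraries. TCF7L2 reached 12.1, 26.6 and 34.1 in CEpiLC, 9.1, 10.3 and 10.1 in SOX2-ON, 9.18 and 14.2 in 2 SOX2-OFF and 7.51 and 7.54 in 2 naive ESC libraries. The start site thus carried both proteins in all 4 conditions, with TCF7L2 in CEpiLC above naive ESC in every library. The neighbouring element at +284 bp (chr2:116065455-116065655) was overlapped by the same TCF7L2 peaks in CEpiLC, and its CEpiLC-only TCF7L2 call therefore rests on the peak centred on the start site.

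Pbx3 encodes a PBX protein, the partner class of MEIS. Its leading element was intronic at +123.4 kb (chr2:34249576-34250181), and SOX2 was on it in 3 of 3 libraries of every condition. SOX2 reached 17.3, 20.3 and 10.7 in naive ESC, 20.7, 18.3 and 24.6 in CEpiLC, 7.57, 17.7 and 8.04 in SOX2-ON and 5.64, 16.0 and 10.4 in SOX2-OFF. CEpiLC values stood above those of SOX2-ON and SOX2-OFF, and all other pairs of conditions overlapped. β-catenin had 7.22 and 5.34 in 2 CEpiLC libraries, and no other WNT mediator or condition had top-list peaks there in 2 of 3 libraries. At +114.7 kb, chosen after its values were seen, β-catenin reached 19.0, 15.1 and 7.16 in CEpiLC and none in naive ESC.

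**Figure D3:**
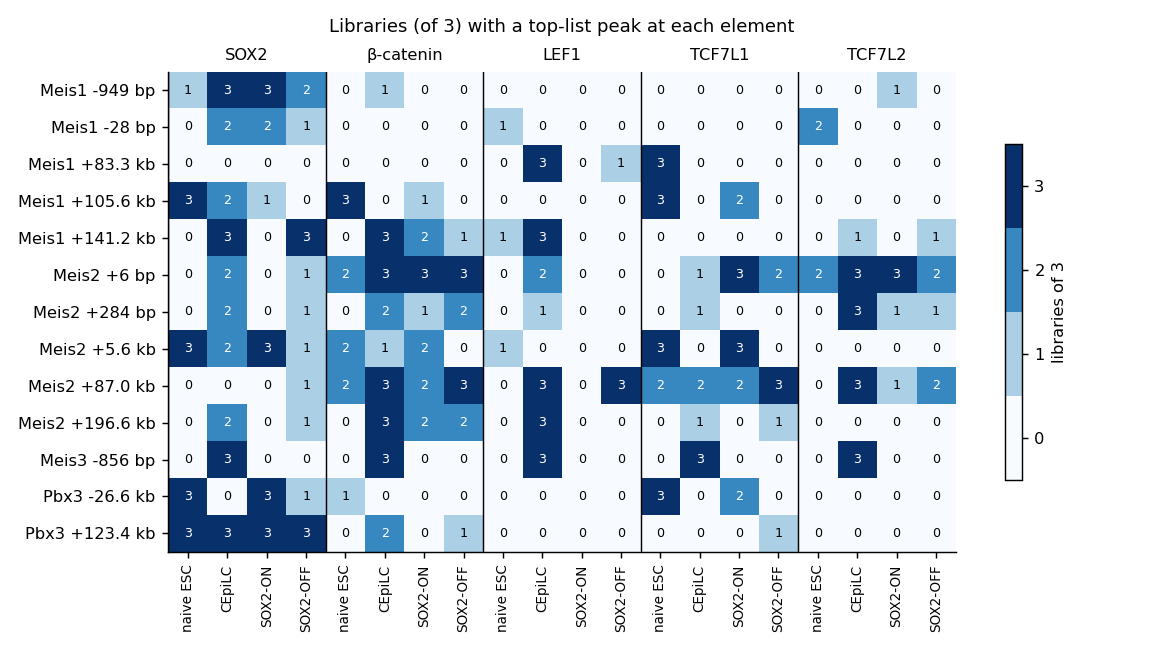
Number of libraries, of 3, with a top-list peak at each named element (rows), for each protein and condition (columns). Darker cells mean more libraries. Meis3 -856 bp has 3 in every CEpiLC column and 0 in all others, and Pbx3 +123.4 kb has 3 in all 4 SOX2 columns.

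With the SOX2 transgene on against off, 9 pairs of element and protein of the 4 genes were ON-only and 3 were OFF-only, by the same rule. This comparison asks whether the SOX2 level moves the WNT mediators in media that differ only in doxycycline. For SOX2, 6 of 14 tested elements were ON-only and 1 was OFF-only, against 39.7% and 5.52% of all tested elements. β-catenin gave 1 of 8 in each direction, against 20.4% and 2.56%. For TCF7L1, 2 of 8 were ON-only and 0 OFF-only, against 5.95% and 2.66%. LEF1 gave 0 ON-only and 1 OFF-only of 1, against 26.5% and 8.15%, and TCF7L2 gave 0 of 2 in either direction, against 5.31% and 4.24%. The SOX2 share of the 4 genes was thus near that of all elements.

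All 6 ON-only SOX2 calls lay in introns, 5 of them of the member genes and 1 of Slc8a2. At Meis2 +19.9 kb SOX2 reached 12.5, 10.4 and 9.23 in SOX2-ON and had no peak in any of the 9 other libraries. At Pbx3 +163.7 kb it reached 10.7, 15.1 and 25.0 in SOX2-ON, 5.44 in 1 SOX2-OFF library and none in naive ESC or CEpiLC. At Meis3 -23.1 kb it reached 8.44, 11.3 and 14.7 in SOX2-ON, 8.03 and 4.46 in 2 naive ESC libraries, and none in CEpiLC or SOX2-OFF. Some SOX2-ON sites were therefore sites of naive ESC and others were not. β-catenin was ON-only at Pbx3 +134.7 kb, at 8.92, 9.06 and 9.11, with no peak in SOX2-OFF. The calls in this paragraph were chosen after their values were seen. The OFF-only pairs were SOX2 at Meis1 +141.2 kb, β-catenin at Meis1 -23.8 kb and LEF1 at Meis2 +87.0 kb. None of them remained when absence was required in the full lists.

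With the cell lines pooled, SOX2 was higher with high SOX2 (naive ESC and SOX2-ON) than with low SOX2 (CEpiLC and SOX2-OFF) at 3 elements, 1 each in Meis1, Meis2 and upstream of Pbx3, and β-catenin was higher at the Meis1 one. The test permuted high and low labels within each cell line (two-sided, exact, 400 assignments) with Benjamini-Hochberg adjustment over all tested elements of a protein. For SOX2, 3 of 32 tested elements of the 4 genes were called higher with high SOX2 and 0 with low SOX2, against 10.8% and 2.14% of 25661 elements. For β-catenin 1 of 23 was called higher with high SOX2 and 0 with low, against 9.42% and 0.774% of 20680. These shares lie at or below those of all elements. Every call sat at the smallest p of the exact permutation test, 0.005. That p is reached only where the high libraries stand apart from the low ones within each cell line. A lack of overlap within a line at a called element is thus part of the call and no further support. For LEF1, TCF7L1 and TCF7L2 no element of the genome was called. The smallest p was reached by only 220, 346 and 167 elements, which gave adjusted p of at least 0.144, 0.123 and 0.182 in these exact permutation tests. Unadjusted p values under 0.05 were reached by 1327 of 7155, 4084 of 19009 and 667 of 6078 elements. For SOX2 and β-catenin the smallest p was reached by 3315 and 2108 elements, enough for calls.

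At Meis1 +105.6 kb (chr11:18913238-18913547, intronic) SOX2 reached 14.9, 12.5 and 8.44 in naive ESC, 4.75, 8.2 and 5.84 in SOX2-ON, 6.95 and 7.22 in 2 CEpiLC libraries, and none in SOX2-OFF. The difference in mean log2 fold was 2.13 (adjusted p = 0.0387, exact permutation test). β-catenin reached 13.4, 7.13 and 11.9 in naive ESC and 4.19, 4.08 and 8.61 in SOX2-ON, and had no peak in CEpiLC or SOX2-OFF, a difference of 2.89 (adjusted p = 0.0491, exact permutation test). High and low libraries of β-catenin did not overlap, whereas for SOX2 both CEpiLC values lay within the SOX2-ON range. TCF7L1 reached 20.6, 11.5 and 27.6 in naive ESC and 5.03 and 10.9 in 2 SOX2-ON libraries, and had no peak in CEpiLC or SOX2-OFF (difference 3.08, adjusted p = 0.123, exact permutation test). TCF7L2 had no peak here in any of the 12 libraries.

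At Meis2 +5.6 kb (chr2:116060103-116060390), intronic, 4273 bp from the nearest start of a Meis2 transcript and taken up after its values were seen, SOX2 reached 20.2, 9.96 and 11.1 in naive ESC, 13.9, 11.9 and 13.1 in SOX2-ON, 4.02, 5.97 and 6.15 in CEpiLC, and 8.2 and 3.11 in 2 SOX2-OFF libraries. Every library with high SOX2 stood above every library with low SOX2, a difference of 1.72 (adjusted p = 0.0387, exact permutation test). TCF7L1 followed the same order, at 16.5, 8.34 and 24.3 in naive ESC, 7.18, 14.2 and 10.7 in SOX2-ON, 3.67 in 1 CEpiLC library and none in SOX2-OFF. Its difference of 3.32 reached the smallest p of 0.005 but not the threshold (adjusted p = 0.123, exact permutation test). β-catenin reached 10.8, 3.57 and 8.12 in naive ESC, 17.4, 5.53 and 4.53 in SOX2-ON and 4.97 in 1 CEpiLC library, with a difference of 2.46 (adjusted p = 0.0797, exact permutation test). The SOX2 peak of SOX2-ON libraries also covered the element at +6.1 kb.

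At Pbx3 -26.6 kb (chr2:34399540-34399936), between genes and 7176 bp from the nearest start of Mapkap1, a kinase-complex gene, SOX2 reached 12.7, 15.1 and 15 in naive ESC (14.3 ± 1.36) and 8.01, 13.5 and 25.4 in SOX2-ON. It reached 4.16 in 1 CEpiLC and 7.96 in 1 SOX2-OFF library. High and low libraries did not overlap, with a difference of 2.98 (adjusted p = 0.0387, exact permutation test). TCF7L1 reached 8.62, 5.04 and 12 in naive ESC and 7.77 and 7.3 in 2 SOX2-ON libraries and had no peak with low SOX2. Because Mapkap1 is nearer than Pbx3, the element is given to Pbx3 by the window alone.

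**Figure D4:**
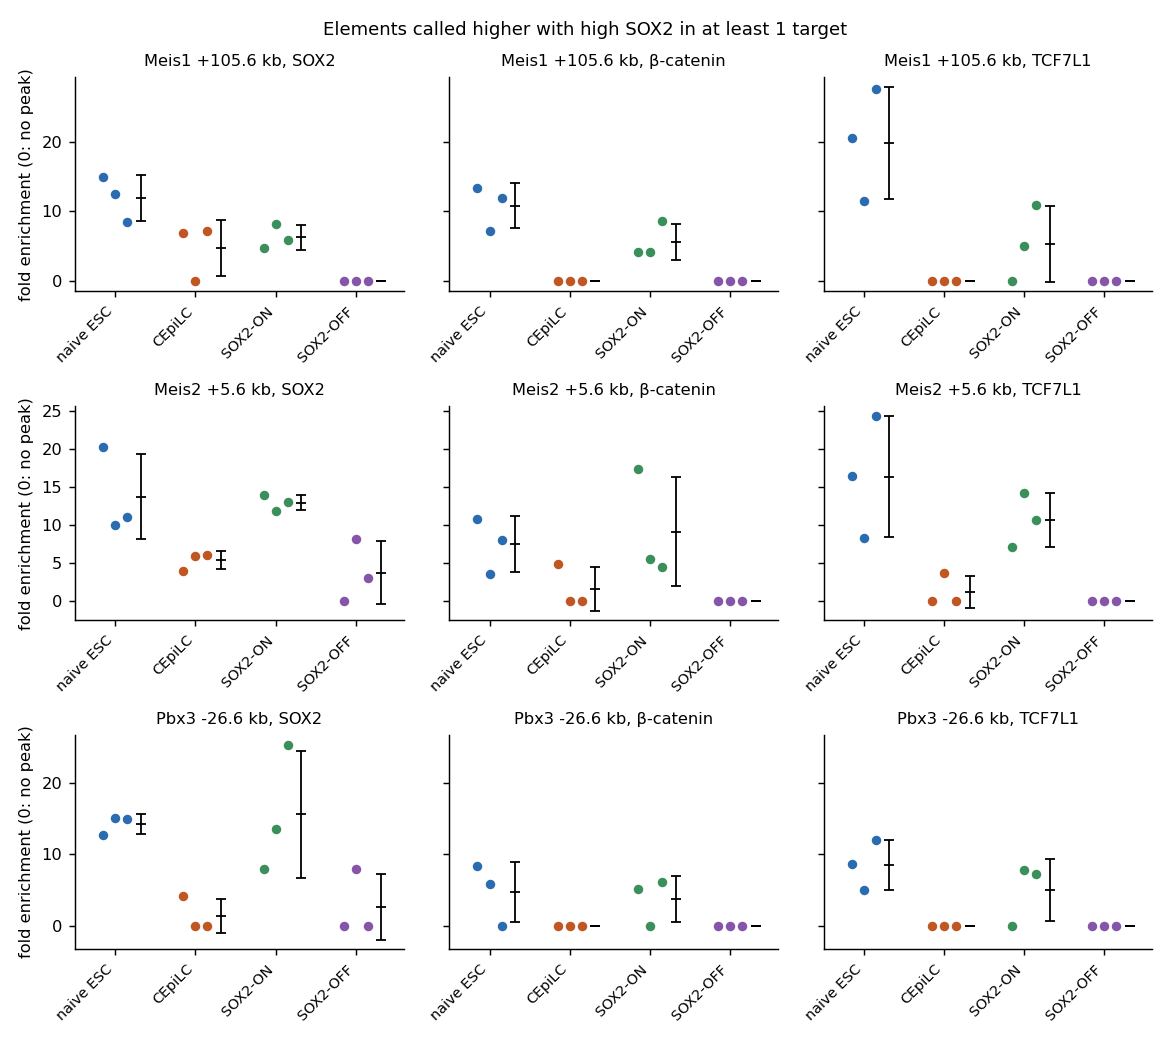
Fold enrichment (y axis, linear) at the elements with a high-SOX2 call, by condition (x axis), for SOX2, β-catenin and TCF7L1 (columns). Points are the 3 libraries of a condition, with 0 for no peak, and the bars give mean ± SD. SOX2-OFF libraries are at 0 for β-catenin and TCF7L1 in all 6 panels, and naive ESC values of TCF7L1 reach 27.6 at Meis1 +105.6 kb.

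All 4 calls were lost with the replicate number as a block (adjusted p = 0.18 for the 3 SOX2 calls and 0.2 for β-catenin, exact permutation test), where 64 assignments remain. These give no p below 0.031 in that test, and 0 elements of the whole genome were called. The loss is therefore not particular to these elements. The SOX2 call at Meis2 +5.6 kb held under the 7 other settings that kept all libraries. The SOX2 calls at Pbx3 -26.6 kb and Meis1 +105.6 kb were lost with ranks in place of folds (adjusted p = 0.063 and 0.0783, exact permutation test), and the latter also with only peaks of -log10 q at least 5 (0.0958). The β-catenin call at Meis1 +105.6 kb was lost with that q threshold (adjusted p = 0.146, exact permutation test) and with ranking by -log10 p (0.0512), and it was not among the calls with 10000 peaks per list or with lists of equal length. With ranks, 3 pairs were called higher with low SOX2 instead of 0, namely SOX2 at Meis1 +141.2 kb and β-catenin at Meis2 +87.0 kb and Meis1 -23.8 kb.

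Over the tested elements of the 4 genes, the median difference, high minus low SOX2 in mean log2 fold, was 0.16 for SOX2, where all tested elements gave 0.65. For β-catenin it was -0.9, against 0.73 for all. It was -1.64 for LEF1, against -0.45, and -1.68 for TCF7L2, against -0.28. For TCF7L1 it was 1.58, against 1.74. β-catenin was higher with high SOX2 at 8 of 23 of these elements, whereas its median of 0.73 puts most of all tested elements above 0. No test of this difference was made. The medians of all elements were themselves away from 0, so a difference of 0 stands below the typical element for SOX2, β-catenin and TCF7L1.

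**Figure D5:**
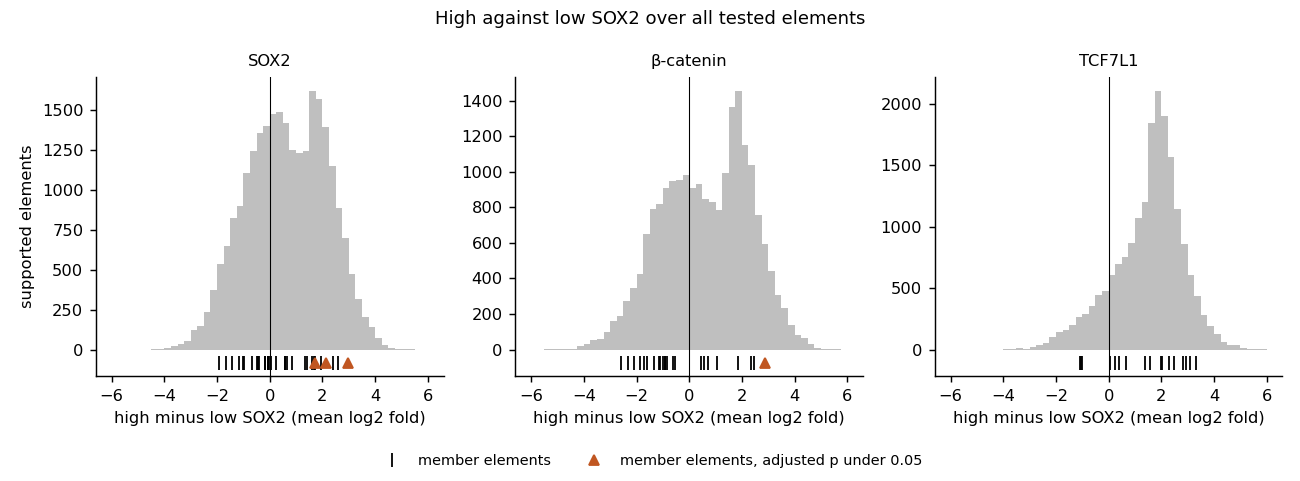
Difference in mean log2 fold enrichment, high minus low SOX2 (x axis), over all tested elements (grey bars, number of elements on the y axis), for SOX2, β-catenin and TCF7L1. Ticks mark the tested elements of Meis1, Meis2, Meis3 and Pbx3 and triangles those with an adjusted p under 0.05. The β-catenin ticks lie mostly left of 0, with a median of -0.9 against 0.73 for all tested elements.

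Other TALE genes taken for comparison were Pbx2 and Pbx4, which are PBX genes, Pknox1 and Pknox2, which encode PREP proteins, and Tgif1 and Tgif2, which encode repressors of TGF-β signalling. Their windows held 68 supported elements, from 3 at Pknox1 to 22 at Tgif1, and each of the 6 genes had at least 3. They gave 16 CEpiLC-only and 16 naive-only pairs, beside 23 and 11 for the 4 genes above. Over all elements of the genome there were 8542 CEpiLC-only and 16199 naive-only pairs. Shares of tested pairs are not given for the 6 genes, so these counts cannot be set against a rate. Pknox2 had 10 of the CEpiLC-only pairs, more than Meis1 with 9, and Tgif1 had 8 of the naive-only pairs. With high against low SOX2, 9 pairs were higher with high SOX2, of which 6 were at Tgif1 and 3 at Tgif2, and 1 was higher with low SOX2, at Pknox1. All elements of the genome gave 4713 and 710 such pairs. No test of the difference between the lists was made.

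Genes whose windows followed each member most closely over the 60 libraries were found from the log2 fold of the strongest peak in the window, with each library's median over protein-coding genes subtracted. For Meis1 these included Sema3a (Pearson r = 0.85) and Slc38a6 (0.83). For Meis2 they were Adgrl2 (0.9), Piezo2 (0.89) and Plekhg6 (0.89). For Meis3 they were Dnajb6 (0.89), Mitf (0.87) and Hoxb5 (0.87), and for Pbx3 Nalcn (0.79), Shisal2a (0.77) and Abhd11 (0.76). The 4 genes correlated with one another at 0.45 to 0.71, and for each of these pairs at least 304 other genes correlated more strongly with the member. The points of each correlation share their libraries and list lengths.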

How the data were processed

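The authors processed the reads with a standard ChIP-seq workflow, in which single-end reads of 76 bp were trimmed, aligned to mm10 with BWA and filtered, and peaks were called per library with MACS2 at a default q-value threshold (the submitters' processing notes name MACS2 and mm10). Each of the 60 deposited lists gives for each peak a fold enrichment, a ratio to local background, and the −log10 p-value and q-value, as the authors' peak caller wrote them. The lowest −log10 q was 1.3. The 4 input samples were not analysed here, and no normalization between libraries is stated.

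From these lists, the 20000 strongest peaks by fold of each library were taken, 63 mitochondrial peaks left out, summits linked at gaps of up to 200 bp and widened by 100 bp on each side, and peaks assigned to elements by an overlap of at least 1 bp. Windows came from GENCODE M21 and sequences from the RefSeq copy of GRCm38, whose chromosome ends no peak passed. An element belonged to a window by its middle. Values are log2 fold of the strongest overlapping peak of the full list, 0 where none. An element was named if it had 3 of 3 top-list peaks in most groups of its gene, was called for at least 2 proteins in CEpiLC against naive ESC or in high against low SOX2, or lay within 1 kb of a start site, with at most 6 per gene beside the start sites. Tests were exact permutation tests with Benjamini-Hochberg adjustment over all tested elements at 0.05, in Python 3.11.15 with numpy 2.4.6 and pandas 2.3.3, and were tested on simulated data. Alternatives were list length, ranking, q threshold, overlap, linking, window, support, replicates left out and a replicate block. The members and lists were chosen with earlier results of these data known. Some results for genes other than the members are not reported here.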

Additional observations from a re-analysis of the deposited data

How the results depend on the processing

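Of 161 recomputed values, 113 stayed on the same side of their threshold or within 1.5 times the count. Another 27 moved beyond that, and 21 of named pairs were no longer called. No high minus low difference of a named pair changed sign, and a change of direction was not looked for in the counts. With 10000 peaks per list the supported elements fell to 15 at Meis1 and 15 at Meis2, naive-only pairs to 6, and 1 pair was higher with low SOX2. With lists of equal length CEpiLC-only pairs were 14, naive-only pairs 1 and pairs higher with low SOX2 1. With absence required in the full lists CEpiLC-only pairs were 11 and SOX2-OFF-only pairs 0. Ranking by −log10 p gave 1 SOX2-OFF-only pair, and −log10 q of at least 5 gave 2 pairs higher with high SOX2. With ranks in place of folds 2 pairs were higher with high SOX2 and 3 with low SOX2. Support in 3 of 3 libraries left 12 elements at Meis1, 15 at Meis2 and 5 at Pbx3, and a window of 10 kb left 1 at Meis3. Without the 5 lists under 5000 peaks, an alternative chosen after seeing the data, SOX2-OFF-only pairs were 7. Leaving out 1 replicate number, with 2 of 2 against 0 of 2, gave 31 to 40 CEpiLC-only, 12 to 13 naive-only, 12 to 23 SOX2-ON-only and 3 to 9 SOX2-OFF-only pairs, and 18 to 19 elements at Meis1, 18 to 21 at Meis2, 3 at Meis3 and 6 to 7 at Pbx3. High against low SOX2 could then not be called, since 36 assignments give no p below 0.056. The labels share replicate numbers, and same-numbered libraries deviated together (r over 0.1) in 8 of 30 pairs (r from -0.08 to 0.21). All 3 pairs passed this in TCF7L1 between SOX2-ON and SOX2-OFF (0.21, 0.16 and 0.14) and in no other protein and comparison. Between SOX2-ON and SOX2-OFF, r was 0.02, 0.05 and 0.08 for SOX2 and 0.03, 0.14 and 0.1 for β-catenin. Between naive ESC and CEpiLC it was 0.02, 0.03 and -0.01 for SOX2 and 0.1, 0.02 and 0.02 for β-catenin. A cut at 0.1 cannot decide whether the numbers pair these libraries, so the loss of the SOX2 and β-catenin calls with the block remains a limit on them. With the replicate block 0 pairs were called higher with high SOX2, where 64 assignments give no p below 0.031. Unknown read depth limits all statements on missing peaks.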
